A study of Mus musculus with 12 samples.

Results

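The 9 genes described here make, recycle and use glutathione or belong to the antioxidant programme of the transcription factor NRF2. They are Gclc, Gclm, Gss, Gsr, Mgst1, Nqo1, Hmox1, Txnrd1 and Srxn1. They belong to a set of 10 taken by gene name from a table of 54555 genes. Each of the 9 had 1 row in that table and all 9 passed the filter on low values, and they are thus 9 of the 14866 genes tested.

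RNA sequencing was done on R1 cells, an established mouse embryonic stem cell (mESC) line kept on gelatin with leukemia inhibitory factor (LIF), in 4 groups of 3 libraries. The N_NC libraries are from normal mESCs. The N_5S libraries are from mESCs given 25 µM Ac45SGlcNAc for 48 h, an inhibitor of O-GlcNAc transferase (OGT), the enzyme that places N-acetylglucosamine on nuclear and cytoplasmic proteins. The DIF_NC libraries are from cells pre-treated with DMSO and then held for 48 h in LIF-free medium with 1 µM retinoic acid (RA), which drives differentiation. The DIF_5S libraries are from cells pre-treated with the inhibitor and then given the same RA step. The culture medium contained β-mercaptoethanol, a thiol reductant. RA and the lack of LIF cannot be told apart, and a change "with RA" below is that of both. The sources used here do not say whether the inhibitor stayed in the medium during RA, or whether N_NC received DMSO. Nothing says that the replicates are separate cultures. Each p-value therefore reflects the scatter among libraries within a group, pooled over the 4 groups, and this scatter is possibly only technical.

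Glutathione is a tripeptide that keeps protein thiols reduced and supplies electrons to peroxidases. Glutamate-cysteine ligase, made of the catalytic subunit Gclc and the modifier subunit Gclm, joins glutamate to cysteine, and glutathione synthetase (Gss) adds glycine. Oxidised glutathione is returned to its reduced form by Gsr with NADPH, which the pentose phosphate pathway helps to supply. NRF2, encoded by Nfe2l2, is held low by KEAP1, which hands it to a CUL3 ubiquitin ligase. When KEAP1 cysteines are oxidised, NRF2 accumulates and, with a small MAF partner, binds antioxidant response elements near genes such as Gclc, Gclm, Nqo1, Hmox1, Txnrd1 and Srxn1.

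The core letters of that element are shown first, since they are what the NRF2 targets are known to share. The core searched was TGACNNNGC, which reads GCNNNGTCA on the other strand, in promoters of 300 bases (250 before and 50 after each start site) from RefSeq on GRCm38.p6. Entries were found for 6 of the 9 genes, with 9 start sites in all; Gclc, Gsr and Hmox1 had no entry. The core lay in 4 of these 9 promoters, 1 each for Gclm, Mgst1, Txnrd1 and Srxn1, and in 12.4% of the 32851 promoters in the table. Each line below is written 5′ to 3′ on the gene's own strand, with the match in capitals.
Gclm, chr3:122245393-122245461, plus strand: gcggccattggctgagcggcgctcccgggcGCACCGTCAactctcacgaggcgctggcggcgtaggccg
Mgst1, chr6:138140461-138140489, plus strand: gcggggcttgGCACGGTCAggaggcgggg
Txnrd1, chr10:82859084-82859152, plus strand: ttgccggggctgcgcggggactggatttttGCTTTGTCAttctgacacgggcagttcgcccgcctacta
Srxn1, chr2:152105542-152105570, plus strand: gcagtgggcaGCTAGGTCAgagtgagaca
All 4 matches were on the strand opposite to the gene. The first capital lay at -134 from the start site in Gclm, -56 in Mgst1, -92 in Txnrd1 and +29 in Srxn1. The Txnrd1 match belongs to 1 of its 3 listed start sites, and the Mgst1 match to 1 of 2. The windows of Mgst1 and Srxn1 fall inside first exons of the GENCODE annotation. Gss and Nqo1 held no such letters in their windows. A match is a description of letters, not of a bound site.

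Levels were FPKM (fragments per kilobase of gene, scaled between libraries), as deposited. The fragments recovered were 1.06 to 1.106 times the total that this scale implies in mESC libraries. In RA-treated libraries they were 0.8826 to 0.9336 times it, so changes with RA depend on the scale. The libraries held 15553627 to 17833464 fragments each. Changes are differences of log2(FPKM + 1) between group means, fitted with limma over all 12 libraries, and a gene was called when its Benjamini-Hochberg adjusted p over the 14866 genes was under 0.05. At levels near or below 1 FPKM the added 1 makes these changes smaller than the fold change in FPKM. Ogt mRNA was higher in N_5S than in N_NC, at 40.8 ± 0.753 against 18.1 ± 1.92 FPKM (SD, n = 3). In RA-treated cells it was 26.4 ± 1.94 with the inhibitor against 23.2 ± 3.14 FPKM (SD, n = 3), which was not called (limma adjusted p = 0.167), and the log2 effects in the 2 states differed by -0.95 (limma adjusted p = 0.00292). Mgea5, which encodes the enzyme that removes the sugar, was lower with the inhibitor in both states, at 9.46 ± 0.327 against 37.2 ± 1.05 FPKM in mESCs and 8.26 ± 1.15 against 46.1 ± 2.49 FPKM in RA-treated cells (SD, n = 3). The summed level of 5 pluripotency markers (Pou5f1, Sox2, Nanog, Zfp42, Esrrb) was 1820 to 1830 FPKM in N_NC, 1790 to 1830 in N_5S, 283 to 318 in DIF_NC and 233 to 250 in DIF_5S. That of 4 RA response markers (Cyp26a1, Rarb, Hoxb1, Stra8) was 42.5 to 46.3, 42.9 to 49.4, 719 to 753 and 941 to 980.0 FPKM in the same order. All 4 rose in both RA comparisons, and Stra8 made up most of the sum, at 531 to 559 FPKM in DIF_NC and 708 to 735 in DIF_5S. In RA-treated cells the inhibitor raised 3 of these 4 and lowered Hoxb1, from 51.7 to 62.7 FPKM in DIF_NC to 33.3 to 37.8 in DIF_5S, and it lowered 4 of the 5 pluripotency markers and raised 1.

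Among the 9 genes, the inhibitor lowered 1 in mESCs (Srxn1) and raised none, where 3.18% of all genes tested were called lower, 4.6% higher and 7.78% in either direction. RA without inhibitor lowered 7 and raised 1, Mgst1, against 37.2% of all genes lower, 33.7% higher and 70.9% in either direction. In RA-treated cells the inhibitor raised Gss and lowered Gclm, Nqo1 and Txnrd1, where 17.6% of all genes were called higher, 14.3% lower and 31.9% in either direction. RA with inhibitor lowered 6 and raised 1, again Mgst1, against 36.7% of all genes lower, 32% higher and 68.7% in either direction. No member's response to the inhibitor differed between the states past the threshold (limma, 0 of 9; 3 had an unadjusted p under 0.05, and TPM scaling gave 1), and 7.69% of all genes did. The median log2 change of the 9 genes was -0.04 for the inhibitor in mESCs, -0.236 for RA without inhibitor, -0.104 for the inhibitor in RA-treated cells, -0.277 for RA with inhibitor and -0.108 for the difference of the inhibitor's effects. Over all genes tested these medians were 0.005, -0.035, 0.002, -0.043 and 0.004. Single libraries moved 2 of the all-gene shares by over 1.5 times. The 7.78% for the inhibitor in mESCs was 2.43% without N_5S replicate 2, 2.89% without N_NC replicate 2, 3.29% without N_NC replicate 1 and 3.6% without N_5S replicate 3. The 7.69% for the difference was 4.29% without DIF_5S replicate 1, 4.74% without N_5S replicate 2, 4.88% without DIF_NC replicate 1 and 5.0% without N_NC replicate 2. The 5 comparisons share groups, so their counts are not independent of each other.

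**Figure D1:**
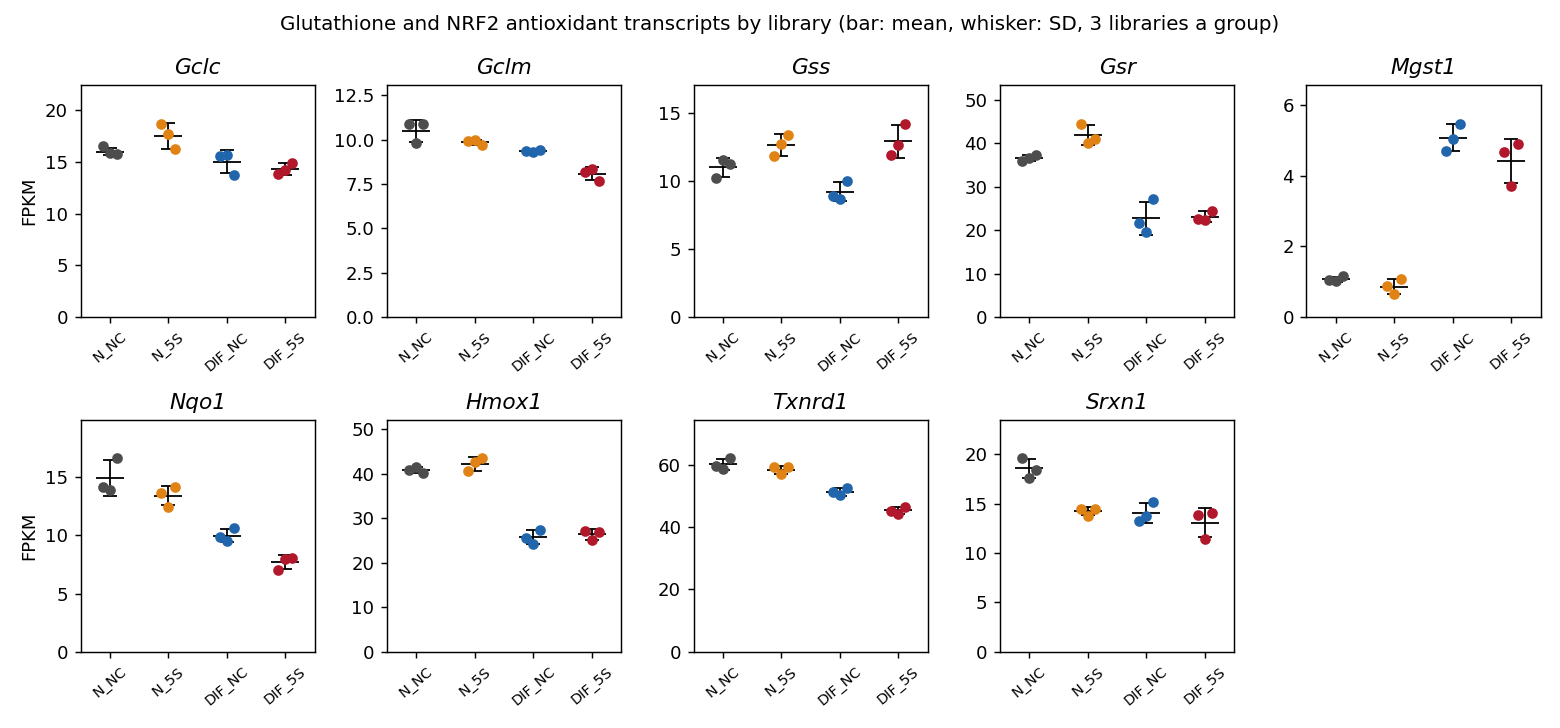
FPKM of each of the 9 genes (y axis, linear, starting at 0) in the 12 libraries, as points coloured by group (x axis: N_NC, N_5S, DIF_NC, DIF_5S), with the mean as a bar and the SD as whiskers (n = 3). Gclc, Gclm, Gsr, Nqo1, Hmox1 and Txnrd1 are lower in every RA-treated library than in every mESC library, and Mgst1 is higher. The share of all genes that separate in this way is not given, so the separation is not read as a trait of these 9. Of all genes tested, 70.9% were called with RA alone and 68.7% with RA plus inhibitor. Gss has its highest mean in DIF_5S.

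The scaling between libraries bears on the RA counts and is given before the single genes. Under TPM scaling the median of all genes moved from -0.035 to 0.18 for RA without inhibitor and from -0.043 to 0.204 for RA with inhibitor. Median-of-ratios scaling gave medians of 0.008 and 0.007, and limma-voom with TMM on recovered fragments gave 0.008 and -0.008. Of the 14866 genes, TPM called 6576 higher and 3756 lower for RA without inhibitor (5007 and 5527 on the deposited scale), 6703 and 3421 for RA with inhibitor (4758 and 5451), and 3192 and 1586 for the inhibitor in RA-treated cells (2618 and 2120). The TPM counts given for gene lists below stand against these. With RA, the list counts under median-of-ratios and TMM scaling lay closer to the deposited ones than the TPM counts did. With TPM, RA without inhibitor lowered 3 of the 9 genes and raised 1, and RA with inhibitor lowered 3 and raised 2, Mgst1 and Gss. Gsr, Nqo1 and Hmox1 were called lower and Mgst1 higher in both RA comparisons under each of the 4 scalings run. The small decreases called with RA for Gclc, Gclm, Gss, Txnrd1 and Srxn1 were not called under TPM. Under median-of-ratios scaling and with limma-voom they kept their calls, except that of Gclm with RA alone.

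**Figure D2:**
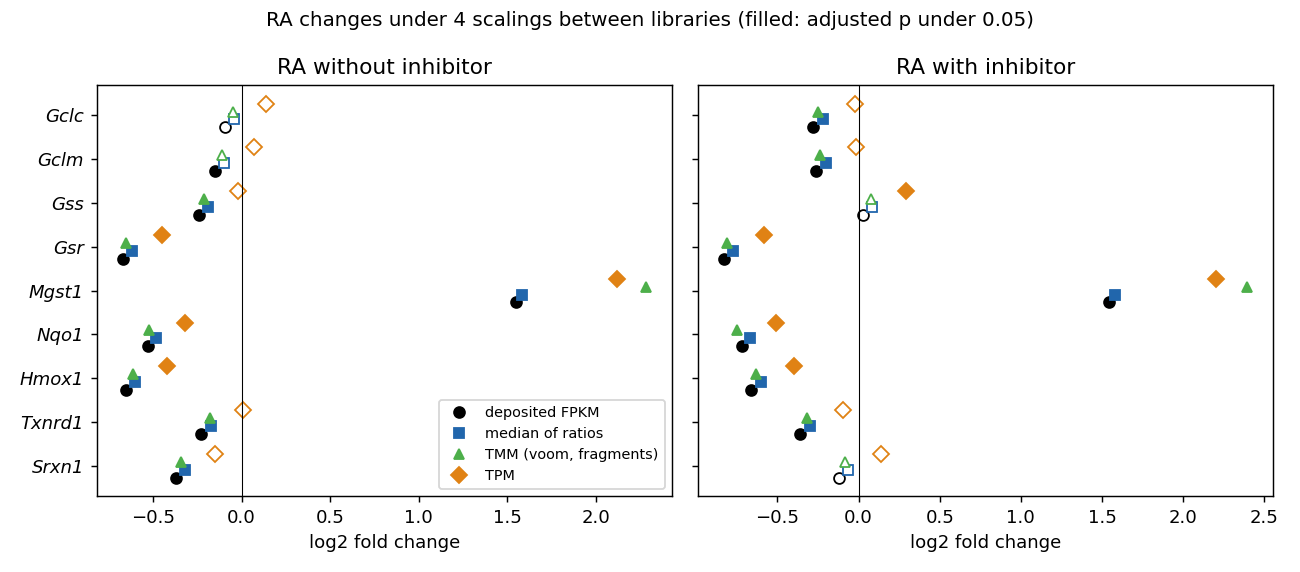
Log2 fold change with RA (x axis) for each of the 9 genes (y axis), without inhibitor (left) and with it (right), on the deposited FPKM, after median-of-ratios scaling, with TMM on recovered fragments, and as TPM; filled symbols have an adjusted p under 0.05. The TPM symbols sit to the right of the others for every gene but Mgst1, whose TMM symbol is farthest right, while Gsr, Nqo1 and Hmox1 stay below 0 and Mgst1 above 0 under all 4.

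The genes of glutathione synthesis moved little with RA, and 1 of them, Gss, rose with the inhibitor in RA-treated cells. Gclc (chromosome 9, 77754535 to 77794485, GRCm38, plus strand) encodes the catalytic subunit of glutamate-cysteine ligase. It measured 16.5, 15.9 and 15.8 FPKM in N_NC, 18.7, 17.7 and 16.2 in N_5S, 15.6, 15.7 and 13.7 in DIF_NC, and 13.8, 14.2 and 14.9 in DIF_5S. The N_NC and N_5S libraries overlapped, as did DIF_NC and DIF_5S, and every RA-treated library lay below every mESC library. RA with inhibitor lowered Gclc by a log2 change of -0.28 (SE 0.064, limma adjusted p = 0.00219), which was -0.02 under TPM (limma adjusted p = 0.857). Without inhibitor the change with RA was -0.09, with a 95% interval from -0.23 to 0.05 (limma adjusted p = 0.21; 0.14 and 0.195 under TPM). The inhibitor's own effect had an interval from -0.02 to 0.26 in mESCs and from -0.2 to 0.08 in RA-treated cells.

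Gclm (chromosome 3, 122245557 to 122270732, plus strand), the modifier subunit that makes the ligase more active, measured 10.9, 9.8 and 10.9 FPKM in N_NC and 9.91, 9.96 and 9.67 in N_5S. It measured 9.38, 9.32 and 9.43 FPKM in DIF_NC and 8.2, 8.35 and 7.66 in DIF_5S. The 3 DIF_5S libraries were the lowest of the 12 and overlapped no other group. The inhibitor lowered Gclm in RA-treated cells by a log2 change of -0.20 (SE 0.05, limma adjusted p = 0.0123), and its mean FPKM fell by 14.0%. No single library decided that call, but under TPM the change was -0.17 (limma adjusted p = 0.102). RA with inhibitor lowered it by -0.26 (limma adjusted p = 0.000678; -0.013 under TPM). The smaller change with RA alone, -0.15 (limma adjusted p = 0.0186), lost its call without N_NC replicate 1 (limma adjusted p = 0.0683), without N_NC replicate 3 (0.0718), in the fit of the compared groups alone (0.0501), under median-of-ratios scaling (0.0952) and with limma-voom on recovered fragments (0.108). Under TPM it turned to 0.071 (limma adjusted p = 0.397). The ratio of Gclc to Gclm FPKM was 1.53 ± 0.0868 in N_NC, 1.78 ± 0.11 in N_5S, 1.6 ± 0.127 in DIF_NC and 1.77 ± 0.146 in DIF_5S (SD, n = 3). The N_5S libraries ran from 1.67 to 1.89 and the N_NC libraries from 1.45 to 1.62, with no overlap. In RA-treated cells the ranges met, at 1.68 to 1.94 in DIF_5S and 1.45 to 1.68 in DIF_NC. This ratio was not tested.

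Gss (chromosome 2, 155563181 to 155592810, minus strand) encodes glutathione synthetase, the second enzyme of the pathway. It measured 10.2, 11.5 and 11.2 FPKM in N_NC, 11.8, 12.7 and 13.4 in N_5S, 8.91, 8.67 and 9.98 in DIF_NC, and 11.9, 12.6 and 14.2 in DIF_5S. The DIF_NC libraries were the lowest of all 12, and both inhibitor groups lay above their own controls with no overlap. In RA-treated cells the inhibitor raised Gss by a log2 change of 0.45 (SE 0.077, limma adjusted p = 0.00134), and its mean FPKM was 40.2% higher. In mESCs the same comparison gave 0.18, with a 95% interval from 0.01 to 0.35 (limma adjusted p = 0.175). The 2 effects differed by 0.26, with an interval from 0.02 to 0.5 (limma adjusted p = 0.168; 0.31 and 0.0458 under TPM). RA without inhibitor lowered Gss by -0.24 (limma adjusted p = 0.0162), a call that ended without N_NC replicate 2 (0.0597), DIF_NC replicate 1 (0.0511) or DIF_NC replicate 2 (0.0602), and under TPM (-0.019, limma adjusted p = 0.79). RA with inhibitor gave 0.03, with an interval from -0.14 to 0.19 (limma adjusted p = 0.775), but TPM called Gss higher there, at 0.29 (limma adjusted p = 0.000962). Gss shares 395 of its 5915 exon bases with Acss2 on the other strand, and the sources used here do not give the strand setting of the counting. Acss2, an acetyl-CoA synthetase, moved the opposite way, with log2 changes of 0.89 for RA without inhibitor (limma adjusted p = 2.39e-07) and -0.46 for the inhibitor in RA-treated cells (limma adjusted p = 0.000458).

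The gene that recycles glutathione fell with RA under each of the 4 scalings run. Gsr (chromosome 8, 33652523 to 33698163, plus strand), glutathione reductase, measured 35.8, 36.7 and 37.2 FPKM in N_NC and 44.5, 40.1 and 40.9 in N_5S. It measured 21.6, 19.6 and 27.1 FPKM in DIF_NC and 22.5, 22.3 and 24.4 in DIF_5S. The N_5S libraries were the highest and did not overlap N_NC, while the RA-treated groups overlapped each other, with DIF_NC replicate 3 the highest of their 6 libraries. RA lowered Gsr by a log2 change of -0.67 without inhibitor (SE 0.093, limma adjusted p = 4.38e-05) and -0.83 with it (limma adjusted p = 7.84e-06), and its mean FPKM fell by 37.8% and by 44.9%. The inhibitor's effect was 0.19 in mESCs, with an interval from -0.02 to 0.39 (limma adjusted p = 0.256), and 0.03 in RA-treated cells, from -0.17 to 0.23. In bulk RNA, fewer cells that express a gene and less of its RNA per cell cannot be told apart, here and for each gene below.

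Mgst1 (chromosome 6, 138140316 to 138156755, plus strand) encodes microsomal glutathione S-transferase 1, a membrane enzyme that conjugates glutathione and reduces lipid peroxides, and it moved against the other members. It measured 1.04, 1.02 and 1.16 FPKM in N_NC, 0.866, 0.644 and 1.08 in N_5S, 4.71, 5.05 and 5.48 in DIF_NC, and 4.67, 3.72 and 4.89 in DIF_5S. Every RA-treated library exceeded every mESC library, and within each state the inhibitor and control libraries overlapped. RA raised it by a log2 change of 1.55 without inhibitor (SE 0.1, limma adjusted p = 1.06e-07) and 1.54 with it (limma adjusted p = 1.14e-07). In FPKM the means rose from 1.07 ± 0.0722 to 5.08 ± 0.387 and from 0.864 ± 0.219 to 4.42 ± 0.62 (SD, n = 3), which the log2(FPKM + 1) scale understates: limma-voom on recovered fragments gave log2 changes of 2.28 and 2.39. Mgst1 was the lowest of the 9 genes in FPKM, with 19 to 202 fragments per library. The inhibitor's effect on it had an interval from -0.39 to 0.07 in mESCs and from -0.4 to 0.06 in RA-treated cells.

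Genes of other cell types moved with RA as well. The summed FPKM of 6 extraembryonic endoderm markers, none of them at 0 in any group, was 5.91 to 6.35 in N_NC, 6.24 to 7.16 in N_5S, 16.6 to 18.9 in DIF_NC and 19.6 to 21.2 in DIF_5S, and all 6 rose in both RA comparisons. That of 8 fibroblast or feeder markers was 15.4 to 16.6, 14.3 to 16.2, 21.1 to 23.8 and 22.2 to 23.5 FPKM in the same order. Of the 4 of these 8 that were tested, 3 rose and 1, Thy1, fell in both RA comparisons, Thy1 from 9.3 to 10.5 FPKM in N_NC to 6.55 to 8.4 in DIF_NC. Dcn was at 0 in every group, and Col3a1 and Lum in all groups but DIF_5S. There they had at most 2 and 1 fragments in a library. Postn was at 0 in N_5S and had at most 12 fragments in any library. The part of these cell types in the Mgst1 and other RA results was not tested.

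The NRF2 targets Nqo1, Txnrd1, Hmox1 and Srxn1 were lower after RA alone, and Nqo1 and Txnrd1 were lowest where RA and inhibitor were combined. Nqo1 (chromosome 8, 107388225 to 107403206, minus strand), the quinone reductase often read as a marker of NRF2 activity, measured 14.1, 13.9 and 16.6 FPKM in N_NC and 13.6, 12.4 and 14.1 in N_5S. It measured 9.84, 9.48 and 10.6 FPKM in DIF_NC and 7.03, 7.99 and 8.05 in DIF_5S. The groups ran N_NC, N_5S, DIF_NC, DIF_5S from high to low, and the first 2 overlapped while the others did not. RA lowered Nqo1 by a log2 change of -0.53 without inhibitor (SE 0.078, limma adjusted p = 7.33e-05) and -0.72 with it (limma adjusted p = 5.52e-06). The inhibitor lowered it in RA-treated cells by -0.34 (limma adjusted p = 0.00687), its mean FPKM fell by 22.9%, and each alternative run kept that call. In mESCs its effect was -0.14, with an interval from -0.31 to 0.03. The difference between the states was -0.2, with an interval from -0.44 to 0.05 (limma adjusted p = 0.312).

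Txnrd1 (chromosome 10, 82833951 to 82897712, plus strand), cytosolic thioredoxin reductase, had the highest FPKM of the 9 genes and showed the same order of groups. It measured 59.6, 58.8 and 62.1 FPKM in N_NC, 59.4, 57.0 and 59.2 in N_5S, 51.2, 50.2 and 52.6 in DIF_NC, and 45.2, 44.2 and 46.6 in DIF_5S. The 2 mESC groups overlapped and the 2 RA-treated groups did not. The inhibitor lowered it in RA-treated cells by a log2 change of -0.17 (SE 0.04, limma adjusted p = 0.00685), and its mean FPKM fell by 11.6%, a call each alternative kept. RA lowered it by -0.23 without inhibitor (limma adjusted p = 0.000346), which turned to 0.0098 under TPM (limma adjusted p = 0.837), and by -0.36 with it (limma adjusted p = 7.84e-06; -0.093 and 0.0564 under TPM). In mESCs the inhibitor's effect had an interval from -0.13 to 0.05. The difference between the states was -0.14, from -0.26 to -0.01 (limma adjusted p = 0.174).

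Hmox1 (chromosome 8, 75093621 to 75100589, plus strand), haem oxygenase 1, splits haem into biliverdin, iron and carbon monoxide. It measured 40.7, 41.4 and 40.2 FPKM in N_NC, 40.5, 42.6 and 43.4 in N_5S, 25.5, 24.2 and 27.4 in DIF_NC, and 27.2, 25.0 and 26.9 in DIF_5S. The mESC and RA-treated libraries formed separate ranges, and inhibitor and control libraries overlapped within each. RA lowered Hmox1 by a log2 change of -0.65 without inhibitor (SE 0.052, limma adjusted p = 4.84e-07) and -0.66 with it (limma adjusted p = 4.35e-07), and its mean FPKM fell by 36.9% and by 37.4%. The inhibitor's effect was 0.05 in mESCs, with an interval from -0.07 to 0.16, and 0.03 in RA-treated cells, from -0.08 to 0.15.

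Srxn1 (chromosome 2, 152105516 to 152111376, plus strand) encodes sulfiredoxin, which repairs overoxidised peroxiredoxins, and was the single member called with the inhibitor in mESCs. It measured 19.6, 17.6 and 18.4 FPKM in N_NC, 14.5, 13.8 and 14.5 in N_5S, 13.3, 13.8 and 15.2 in DIF_NC, and 13.9, 11.4 and 14.1 in DIF_5S. The N_NC libraries stood above all 9 others, which overlapped. The inhibitor lowered it in mESCs by a log2 change of -0.35 (SE 0.078, limma adjusted p = 0.0217), and its mean FPKM fell by 22.9%. That call ended without N_NC replicate 1 (limma adjusted p = 0.0792), N_NC replicate 3 (0.0513), N_5S replicate 2 (0.0846) or N_5S replicate 3 (0.0548), at changes of -0.32 to -0.39 over the 6 fits. RA without inhibitor lowered it by -0.37 (limma adjusted p = 0.00112; -0.15 and 0.0852 under TPM). RA with inhibitor gave -0.12, with an interval from -0.29 to 0.05, and the inhibitor in RA-treated cells -0.1, from -0.28 to 0.07. The inhibitor's effects in the 2 states differed by 0.25, from 0.01 to 0.49 (limma adjusted p = 0.195; 0.34 and 0.0438 without DIF_5S replicate 2).

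**Figure D3:**
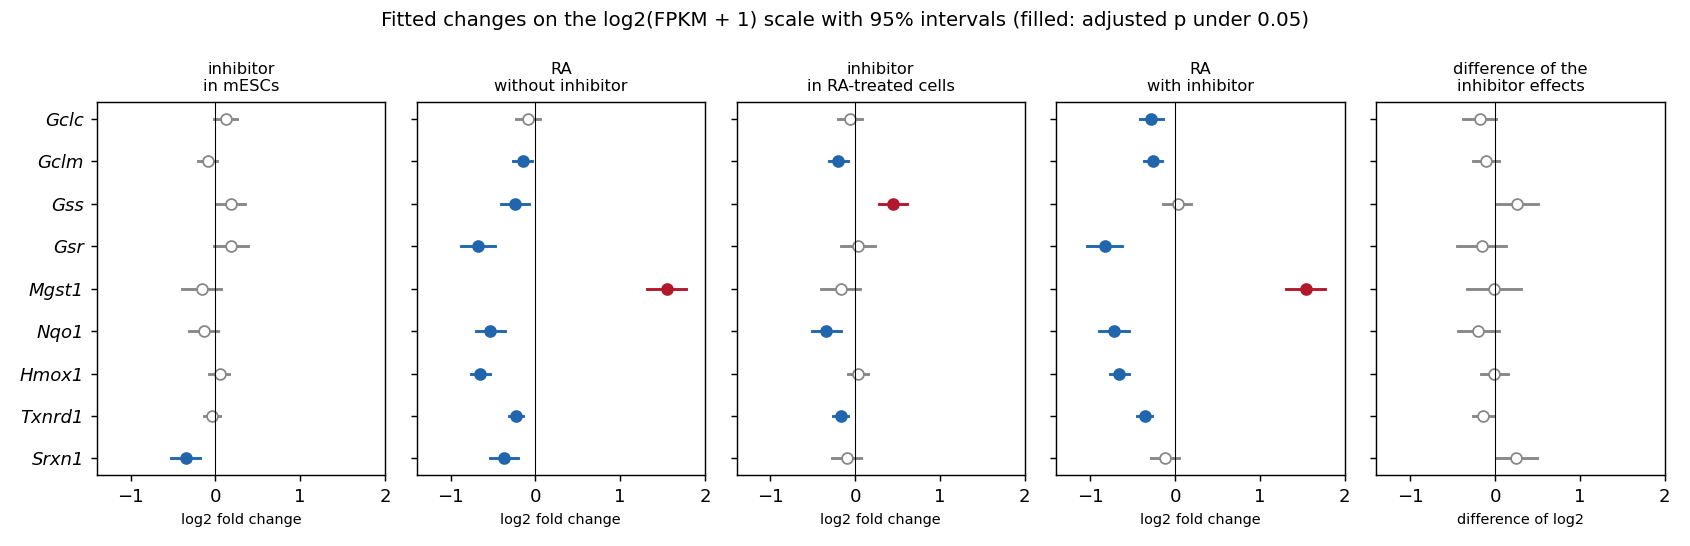
Fitted difference of log2(FPKM + 1) (x axis) with its 95% interval for each of the 9 genes (y axis) in the 5 comparisons, 1 panel each; filled points have an adjusted p under 0.05, red for higher and blue for lower. The inhibitor panel for mESCs has 1 filled point, Srxn1, the 2 RA panels have 8 and 7, and the panel for the difference of the inhibitor effects has none.

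Nfe2l2 and Keap1, the factor and its repressor, were lower after RA, and Keap1 was higher with the inhibitor. Nfe2l2 measured 17.3, 17.9 and 15.6 FPKM in N_NC, 18.6, 16.8 and 16.6 in N_5S, 13.5, 14.8 and 13.1 in DIF_NC, and 10.6, 12.6 and 12.4 in DIF_5S. The RA-treated groups lay below the mESC groups, and DIF_5S below DIF_NC without overlap. RA lowered Nfe2l2 by a log2 change of -0.28 without inhibitor (limma adjusted p = 0.00683; -0.05 and 0.653 under TPM) and -0.51 with it (limma adjusted p = 9.14e-05). The inhibitor's effect in RA-treated cells was -0.20 (SE 0.077, limma adjusted p = 0.0629), and limma-voom on recovered fragments called it at 0.0318. The Nfe2l2 promoter held 1 antioxidant response element core, on the gene's own strand at -240.

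Keap1 measured 7.07, 6.73 and 7.75 FPKM in N_NC, 8.3, 8.56 and 8.63 in N_5S, 4.31, 3.99 and 4.33 in DIF_NC, and 6.7, 6.05 and 6.17 in DIF_5S. None of the 4 groups overlapped. The inhibitor raised it in RA-treated cells by a log2 change of 0.49 (SE 0.059, limma adjusted p = 0.000158), and its mean FPKM was 49.8% higher. RA lowered it by -0.65 without inhibitor (limma adjusted p = 1.3e-06) and -0.38 with it (limma adjusted p = 0.00012; -0.15 and 0.0629 under TPM). Its rise in mESCs, 0.22 (limma adjusted p = 0.0468), lost its call in 9 alternatives, among them the fits without N_NC replicate 1 or 2 or any 1 of the N_5S libraries. The difference between the states was 0.27, from 0.09 to 0.45 (limma adjusted p = 0.0712; 0.35 and 0.0442 under TPM).

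Nfe2l1, a relative of Nfe2l2 that controls proteasome genes, rose with the inhibitor in both states, by 0.32 in mESCs (limma adjusted p = 0.00231) and 0.29 in RA-treated cells (limma adjusted p = 0.000413). Its means were 53.8 ± 1.8, 67.5 ± 0.737, 62.3 ± 2.42 and 76.4 ± 0.862 FPKM in N_NC, N_5S, DIF_NC and DIF_5S (SD, n = 3). Mafg, a small MAF partner of NRF2, rose by 0.25 in mESCs (limma adjusted p = 0.0156, and 0.0643 without N_5S replicate 2) and 0.23 in RA-treated cells (limma adjusted p = 0.00467). Maff, another small MAF, fell by 0.42 with the inhibitor in RA-treated cells (limma adjusted p = 0.00637). Of the 11 tested genes for NRF2 and its regulators, 3 rose and none fell with the inhibitor in mESCs, 3 rose and 5 fell with RA alone (5 and 4 under TPM), 3 rose and 1 fell with the inhibitor in RA-treated cells, and 3 rose and 6 fell with RA plus inhibitor (5 and 4 under TPM). Of all genes, 4.6% were called higher and 3.18% lower with the inhibitor in mESCs, and 33.7% and 37.2% with RA alone. With the inhibitor in RA-treated cells the shares were 17.6% and 14.3%, and with RA plus inhibitor 32% and 36.7%. The counts of the lists below stand against the same shares. Largest in the NRF2 list with RA alone were the decreases of Keap1, Maff (-0.62) and Rbx1 (-0.47) and the rise of Trim21 (0.56). Rbx1 encodes a subunit of the CUL3 ligase. Trim21 was low, at 0.77 to 1.79 FPKM in N_NC and 2.03 to 2.44 in DIF_NC.

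Among the listed genes the largest response to the inhibitor was that of Chac1, in the list for cystine supply and glutathione breakdown. Chac1 encodes an enzyme that degrades glutathione. It measured 9.09, 17.7 and 16.7 FPKM in N_NC, 38.0, 41.8 and 23.7 in N_5S, 22.8, 23.1 and 21.4 in DIF_NC, and 21.1, 14.9 and 18.3 in DIF_5S. The N_5S libraries were the 3 highest, with replicate 3 far below the other 2. The inhibitor raised it in mESCs by a log2 change of 1.21 (SE 0.24, limma adjusted p = 0.0149), which was 1.06 without N_5S replicate 2 (limma adjusted p = 0.0614). In the fit of the compared groups alone that call was lost too (limma adjusted p = 0.0738). In RA-treated cells the change was -0.31, with an interval from -0.84 to 0.22. The 2 effects differed by -1.52, from -2.27 to -0.77 (limma adjusted p = 0.0229; 0.0512, 0.053 and 0.05 without N_5S replicate 1, N_5S replicate 2 and DIF_NC replicate 1, and 0.0593 with no filter). RA raised it by 0.65 without inhibitor (limma adjusted p = 0.0302), a call lost without N_NC replicate 1 (0.37, limma adjusted p = 0.13) or any of the DIF_NC libraries, and lowered it by 0.87 with inhibitor (limma adjusted p = 0.00693). Its promoter is shown because Chac1 is a known target of the stress factor ATF4, which binds C/EBP-ATF elements; the core TGATGNAA or TTNCATCA lay at -193 from the start site.
Chac1, chr2:119351019-119351086, plus strand: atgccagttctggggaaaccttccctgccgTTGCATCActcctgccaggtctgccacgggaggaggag
Those letters were in 3.97% of all promoters and in none of the 9 member promoters. The promoter of Slc7a11, the cystine transporter and an NRF2 target, held 2 of these C/EBP-ATF cores, and those of Nfe2l2 and Keap1 held none. Slc7a11 had 3 to 27 fragments per library (0.0136 to 0.111 FPKM) and was not tested. Whether the core bears on the response of Chac1 to the inhibitor was not tested.

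Of the 14 tested genes for cystine supply, glutathione export and breakdown, 2 rose with the inhibitor in mESCs. With RA alone 3 rose and 9 fell (5 and 7 under TPM), where 33.7% of all genes rose and 37.2% fell. The decreases were led by Cbs (-1.86, limma adjusted p = 4.2e-09), which starts the conversion of homocysteine to cysteine, Ggt1 (-1.49), which cleaves extracellular glutathione, and Abcc4 (-1.34), an export pump. Ggt7 rose by 1.32. With the inhibitor in RA-treated cells 2 rose and 3 fell (5 and 2 under TPM), among them Oplah (0.56, limma adjusted p = 0.00016), the 5-oxoprolinase of the γ-glutamyl cycle, and Ggct (-0.54, limma adjusted p = 0.000275), which forms 5-oxoproline. RA with inhibitor raised 2 and lowered 9 (3 and 8 under TPM), again led by Cbs (-1.96) and Ggt1 (-1.52).

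Glutathione S-transferases, the enzymes that attach glutathione to electrophiles, gave 13 of 19 tested higher and 3 lower with RA alone (14 and 2 under TPM), where 33.7% of all genes were higher and 37.2% lower. Their median log2 change was 0.392, against -0.035 over all genes. Gstm5 rose by 1.83 (limma adjusted p = 1.34e-07), Gstt1 by 1.39, Gstm2 by 1.31 and Gstm6 by 1.31. Gstm6 was low, at 0.854 to 1.04 FPKM in N_NC and 3.55 to 4.14 in DIF_NC, so 1.31 understates its change in FPKM. RA with inhibitor raised 8 and lowered 5 (10 and 4 under TPM), with a smaller median of 0.104, against -0.043 over all genes. The inhibitor in RA-treated cells raised 2 and lowered 6 (3 and 6 under TPM), with Gstk1, the mitochondrial and peroxisomal kappa enzyme, at -0.93 (limma adjusted p = 0.000607). In mESCs it raised 1, Gstz1, at 0.17 (limma adjusted p = 0.0449), a call lost without any 1 of the 6 libraries. Members of the Gsta, Gstm, Gstp and Gstt families have near-identical copies, and how fragments were divided between them is uncertain.

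Among 22 tested peroxidases, peroxiredoxins, thioredoxins, glutaredoxins, dismutases and catalase, RA alone raised 8 and lowered 11 (10 and 6 under TPM). Of all genes, 33.7% were higher and 37.2% lower there. Gpx3 (1.47), the secreted glutathione peroxidase, and Gpx8 (1.37), of the endoplasmic reticulum, rose, while mitochondrial Sod2 (-1.4, limma adjusted p = 1.45e-09) and cytosolic Gpx1 (-1.3, limma adjusted p = 5.36e-08) fell. RA with inhibitor raised 8 and lowered 7 (14 and 3 under TPM). The inhibitor raised 4 and lowered none in RA-treated cells (8 and 0 under TPM, 6 and 2 with limma-voom on recovered fragments). Of all genes, 17.6% were higher and 14.3% lower in that comparison. The rises in the list were led by Glrx (0.31, limma adjusted p = 0.00628) and Txn2 (0.28, limma adjusted p = 0.00187), the mitochondrial thioredoxin. In mESCs 1 gene fell, Txnrd3 (-0.26, limma adjusted p = 0.0125), which encodes a thioredoxin-glutathione reductase. Its limma adjusted p was 0.0527 without N_5S replicate 2 and 0.0623 in the fit of the compared groups alone.

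In the list for NADPH supply, Pgd, 6-phosphogluconate dehydrogenase of the pentose phosphate pathway, fell by 0.89 with RA alone (limma adjusted p = 3.06e-07) and by 1.07 with RA plus inhibitor (limma adjusted p = 6.96e-08). Of the 12 tested genes of this list, 2 rose and 8 fell with RA alone, where 33.7% of all genes rose and 37.2% fell. The list counts were 2 and 7 under median-of-ratios scaling and with limma-voom on recovered fragments, but 4 and 1 under TPM. With RA plus inhibitor 4 rose and 8 fell, also under the former scalings, against 4 and 2 under TPM. Cytosolic Idh1 rose by 0.6 with RA alone (limma adjusted p = 1.48e-06). The inhibitor raised mitochondrial Idh2 and H6pd, hexose-6-phosphate dehydrogenase of the endoplasmic reticulum, in RA-treated cells, by 0.79 (limma adjusted p = 3.43e-05) and 0.76 (limma adjusted p = 2.37e-05). In mESCs the same 2 genes rose by 0.36 (limma adjusted p = 0.0181) and 0.35 (limma adjusted p = 0.0126). Both calls were lost without N_NC replicate 2 (0.0554 and 0.0507) or N_5S replicate 2 (0.0619 and 0.0528). That of Idh2 was also lost without N_NC replicate 1 (0.0642) or N_5S replicate 3 (0.0615), and that of H6pd in the fit of the compared groups alone (0.0683).

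Beside Nqo1 and Hmox1, 13 tested genes for haem, iron and quinone detoxification gave 3 higher and 3 lower with RA alone (7 and 3 under TPM). Of all genes, 33.7% were higher and 37.2% lower there. Cbr3, a carbonyl reductase, fell by 1.68 (limma adjusted p = 9.33e-08), and Slc40a1, the iron exporter ferroportin, rose by 1.06 (limma adjusted p = 2.54e-06). Slc40a1 was low, at 0.315 to 0.347 FPKM in N_NC and 1.39 to 2.16 in DIF_NC, so 1.06 understates its change in FPKM. RA with inhibitor raised 2 and lowered 8 (5 and 4 under TPM). The inhibitor in RA-treated cells raised 2 and lowered 5 (2 and 4 under TPM, 0 and 6 with limma-voom on recovered fragments), led by Blvrb (-0.76, limma adjusted p = 0.000276), a biliverdin reductase, and Ephx1 (-0.64, limma adjusted p = 0.00102), the microsomal epoxide hydrolase. In mESCs 1 gene fell, Nqo2 (-0.32, limma adjusted p = 0.0269), a call that 7 alternatives ended. Of the 10 genes named from the 6 lists for the inhibitor in mESCs, Nfe2l1 was the single one whose call each alternative kept, and leaving out N_5S replicate 2 ended the other 9 (limma adjusted p from 0.0527 to 0.133).

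**Figure D4:**
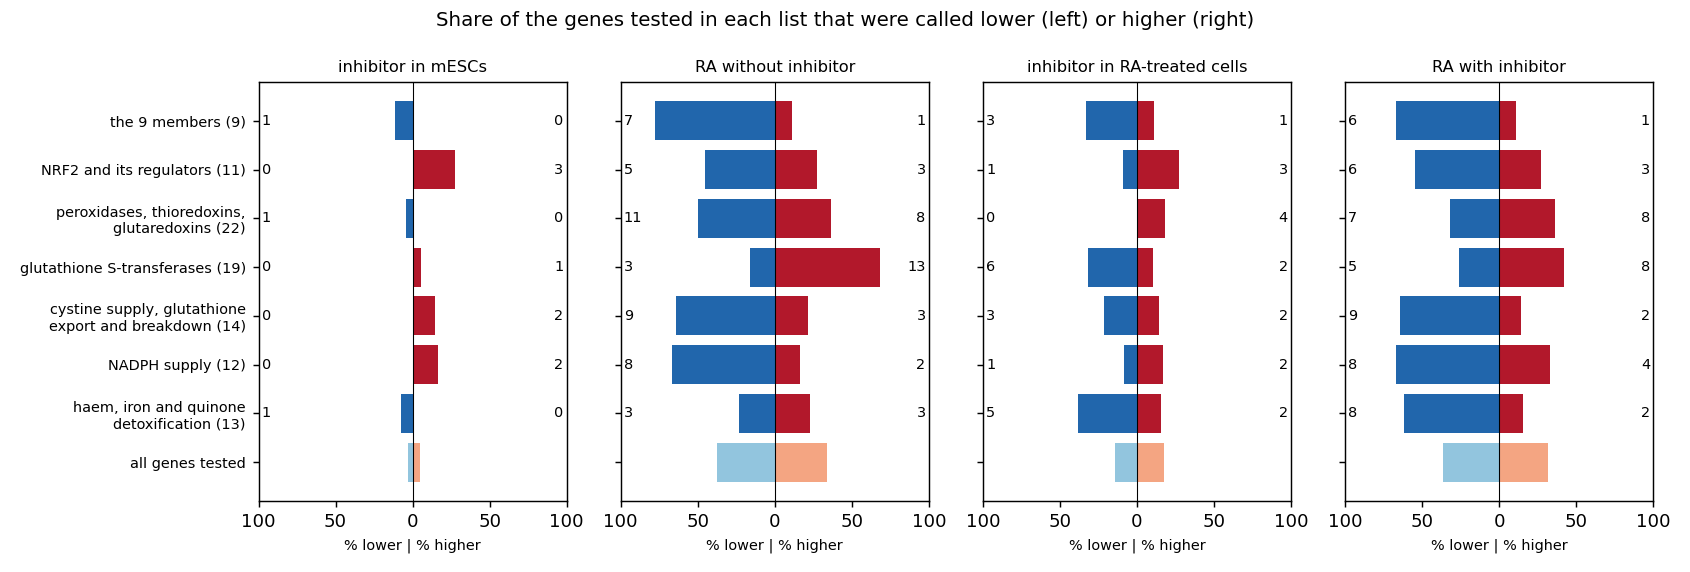
Percent of the genes tested in each list (y axis, number tested in parentheses) that were called higher (right, red) or lower (left, blue) in 4 comparisons, with the numbers called at the edges and all 14866 genes tested in pale bars at the bottom. With RA alone the 9 members have 7 of 9 lower, while the glutathione S-transferases have 13 of 19 higher. With RA plus inhibitor these are 6 of 9 lower and 8 of 19 higher.

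As a description, the genes whose log2(FPKM + 1) was most like each member's over the 12 libraries were listed from the 12322 protein-coding genes tested. The libraries share the RA split, which sets most of these coefficients. A Pearson r of 0.9 was reached by 2692 genes with Hmox1, 2130 with Mgst1, 2056 with Gsr, 1178 with Txnrd1 and 1104 with Nqo1. Nqo1 was closest to another member, Txnrd1 (r = 0.985), and Txnrd1 to Myo1c (r = 0.992) and Gcsh (r = 0.988). Hmox1 was closest to Cdk2ap1 (r = 0.998) and Gpx1 (r = 0.997), Gsr to Trmt112 and Cdca4 (both r = 0.986), and Mgst1 to Zyx (r = 0.994) and Thbs2 (r = 0.993). Fewer genes reached 0.9 with the other members. There were 3 with Gclc, led by Qk (r = 0.918) and Fnip2 (r = 0.907), and 5 with Srxn1, among them Txnrd3 (r = 0.934). Gss, with 41 such genes, was closest to Cdc37 (r = 0.95), and Gclm, with 187, to Slco4a1 (r = 0.96) and Adam23 (r = 0.958). Among the members themselves r ran from -0.97 for Mgst1 with Hmox1 to 0.99 for Nqo1 with Txnrd1. It was 0.91 for Gclm with Nqo1 and with Txnrd1, and -0.36 for Gclm with Gss.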

How the data were processed

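Expression was measured by RNA sequencing in 12 libraries, 3 in each of 4 groups. RNA was taken up in TRIzol and built into libraries with the NEBNext Ultra RNA kit, per the labels' protocols. HISAT2 2.0.5, featureCounts 1.5.0 and GRCm38 are named, per the submitters' processing notes. The deposited values are FPKM per gene. The sources used here do not give the strand setting or the formula. Multiplied by gene length, 100% of values were whole numbers of fragments within 0.02. The totals recovered were 1.06 to 1.106 times those the FPKM imply in mESC libraries and 0.8826 to 0.9336 times in RA-treated libraries, so the deposited scale is not the plain total. Of the 54555 genes, 754 had no symbol.

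The 14866 genes that reached 1 FPKM in at least 3 libraries were fitted with limma 3.58.1 (R 4.3.3) on log2(FPKM + 1) with an intensity trend, all 12 libraries in 1 fit, two-sided, with Benjamini-Hochberg adjustment over all genes in each of 5 comparisons. Tables and plots used Python 3.11.15, pandas 2.3.3, numpy 2.4.6 and matplotlib 3.10.9. The scripts were tested on simulated data. The members and the 6 lists (104 genes, 91 tested) were chosen with earlier results of these data known. Named genes were the members, up to 4 called genes of each list with the largest change in each comparison, Nfe2l2, Keap1, Slc7a11 and Chac1, the 2 protein-coding genes most correlated with each member, and Ogt and Mgea5. Some of these are not printed, and Acss2 was added because it overlaps a member. A member and a marker that the design lists are not reported here, and counts, medians and marker sums leave them out.

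The fits were repeated with TPM or median-of-ratios scaling, with the replicate number as a block, without a variance trend, on the compared groups alone, with a pseudocount of 0.1, unfiltered, on genes with a mean of at least 5 FPKM, by limma-voom with TMM on recovered fragments, and with each library left out in turn. Replicates differed by more than sampling noise (chi-square per gene of 4.01 to 11.1).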

Additional observations from a re-analysis of the deposited data

Results flagged for a closer look

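Of the 91 tested genes in the 6 lists, 13 responded to the inhibitor differently in the 2 states, where 1143 of all 14866 genes (7.69%) did, by limma's test of the difference of the inhibitor's log2 effects (RA-treated minus mESC, adjusted over all genes). The effect was lower in RA-treated cells for Chac1 (-1.52, limma adjusted p = 0.0229), for Gstm3 (-0.85, 0.0243), Gsto2 (-0.6, 0.0269), Gstcd (-0.5, 0.00335) and Gstm4 (-0.46, 0.0285) of the glutathione S-transferase list, for Blvrb (-0.52, 0.0471), for Ggct (-0.38, 0.0416) and for the exporter Abcc1 (-0.38, 0.00994). It was higher for Idh2 (0.44, 0.029), H6pd (0.41, 0.0258), Oplah (0.41, 0.0261), Glrx (0.37, 0.043) and Txn2 (0.32, 0.0233). Of the 13 calls, 11 were lost under at least 1 alternative, and Abcc1 and Gstcd kept theirs in each. Leaving out DIF_NC replicate 1 or DIF_5S replicate 1 ended 10 calls each, and N_NC replicate 2 or N_5S replicate 2 ended 8 each. State and time since the inhibitor was given cannot be told apart in these differences.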

How the results depend on the processing

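Of 715 values recomputed under the alternatives, 671 kept their direction and their side of the threshold, 22 reversed, 19 lost a call and 3 gained one. The count of members called with the inhibitor in mESCs went from 1 to 0 with no filter (Srxn1, limma adjusted p = 0.0517) and ranged from 0 to 1 when a library was left out. TPM scaling changed RA without inhibitor from 8 called to 4, and the difference of the inhibitor effects from 0 to 1, which also ranged from 0 to 1 when a library was left out (Srxn1, 0.34, limma adjusted p = 0.0438 without DIF_5S replicate 2). Under TPM, changes reversed to 0.0098 for Txnrd1, 0.14 for Gclc and 0.071 for Gclm (RA without inhibitor), 0.14 for Srxn1 (RA with inhibitor), and 0.024 for Hmox1 and 0.079 for Mgst1 (difference). The difference for Mgst1 also reversed with a pseudocount of 0.1 (0.11) and with limma-voom (0.12). The cause was not tested. When a library was left out, values that passed through 0 ranged from -0.0059 to 0.079 for Hmox1 and -0.067 to 0.16 for Gsr (inhibitor in RA-treated cells), -0.041 to 0.079 for Gss (RA with inhibitor), and -0.051 to 0.034 for Hmox1 and -0.097 to 0.088 for Mgst1 (difference); none of these was called. With no filter, genes called fell from 1157 to 664 for the inhibitor in mESCs, where 32488 genes were tested, and to 512 in the fit of the compared groups alone; they ranged from 361 to 818 when a library was left out, and those for the difference from 638 to 1032, against 1143.

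Deviations of same-numbered libraries correlated at -0.021 to 0.12 over 18 pairs, 2 of them above 0.1. Since the others were not, and no source ties a number to a shared culture or day, the numbers were not taken to pair the libraries. That 8 of 12 libraries were closest to their own number is a hint of pairing from the data. With the replicate number as a block, the counts of members called stayed at 1, 8, 4, 7 and 0. With 19 to 202 fragments, Mgst1 is the member whose small differences depth limits most; Slc7a11 is below what could be tested.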
